A study of Mus musculus with 4 samples.

Results

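Chromatin occupancy of Mef2Da2, the muscle splice isoform of the transcription factor Mef2D, was described in C2C12 myotubes at day 5 of differentiation against the same antibody blocked with its peptide. The regions were all 19749 regions of the authors' combined table, which is every region the series gives. In each one, the columns of Mef2Da2 and of its blocked control were read, which are 2 of the 4 libraries. Peak shape was taken from the 10105 peaks that the authors listed for Mef2Da2. Each side had 1 library, so no difference carries a replicate error and no test was made.

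MEF2 proteins bind A/T-rich elements through a MADS box and act with myogenic bHLH factors at genes that are switched on as myoblasts fuse into myotubes. Mef2d transcripts carry one of a pair of mutually exclusive exons. The α1 form is widespread, whereas the α2 form appears in differentiating muscle and lacks sites through which protein kinase A acts on α1. Which chromatin the α2 protein occupies was the question this comparison addressed.

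C2C12 is a mouse myoblast line. Cells of both groups were grown to near confluence, moved to medium with low horse serum, insulin and transferrin for 5 days, fixed with formaldehyde and fragmented with micrococcal nuclease and by sonication. Mef2Da2 was precipitated with an antibody against a peptide of the endogenous isoform. The Mef2Da2-BLOCK group used this antibody after it had been blocked with that peptide. No allele, transgene or drug separated the groups, and the labels do not say whether the libraries came from the same culture. The files hold no expression values, so the myotube identity of the cells could not be checked against marker genes. The value of a region or peak was read as its maximal coverage height, and the depth of the libraries is unknown. Coordinates are of the mouse build mm9, and no genome or annotation of that build was used here. Regions are therefore given by position alone, without genes or sequences.

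Without scaling, Mef2Da2 stood above its blocked antibody at most regions. The median height was 37 (quartiles 28 and 55, range 4 to 753) for Mef2Da2 and 12 (quartiles 9 and 16, range 0 to 37) for Mef2Da2-BLOCK. The range of the blocked library ended where the middle of the Mef2Da2 library lay. With 1 added to each height, the median log2 ratio was 1.63 (interval of the median 1.62 to 1.66), and the central 80% of regions lay between 0.49 and 3.15. At least 2-fold more height than in the blocked control was found in 14803 regions, 75.0% of all (exact 95% interval 74.3 to 75.6). At least 4-fold more was found in 7541 regions (38.2%), 8-fold in 2558 (13.0%) and 16-fold in 433 (2.19%). These intervals cover counting error only and treat regions as independent.

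Scaling changed the direction of the median as well as the size of the ratio. Summed over the table, height was 3.87 times larger for Mef2Da2 than for Mef2Da2-BLOCK. Scaling each library to that sum lowered every log2 ratio by 1.95. The median became −0.32, 11989 regions (60.7%) lay at or below the control, against 501 unscaled, and 2697 regions (13.7%) were then at least 2-fold above the blocked control, 472 (2.39%) at least 4-fold, 39 (0.197%) at least 8-fold and 2 (0.0101%) at least 16-fold. How the combined regions were chosen is not given in the sources used here, and 10534 of the 19749 hold no listed Mef2Da2 peak. The total comes from the combined regions alone, and such scaling sets the summed heights of the libraries equal there. Unscaled values carry the unknown difference in depth. Which form lies nearer to true enrichment was not tested.

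Regions that hold a listed Mef2Da2 peak numbered 9215. Their median height was 57 for Mef2Da2 and 11 for the blocked control, which gave log2 ratios with a median of 2.42 unscaled and 0.46 scaled to the total. Of them, 97.8% were at least 2-fold above the control unscaled and 27.7% when scaled. The number at or below it was 0 unscaled and 2730 (29.6%) scaled. The other 10534 regions had a median height of 28 against 13, with a median log2 ratio of 1.05 unscaled and −0.90 scaled. In this class 54.9% were at least 2-fold above the control unscaled and 1.39% when scaled. The number at or below it was 501 unscaled and 9259 (87.9%) scaled. The list was called on the Mef2Da2 library, so the excess in its regions describes that choice. Whether the blocked library entered the calling is not given in the sources used here.

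**Figure D1:**
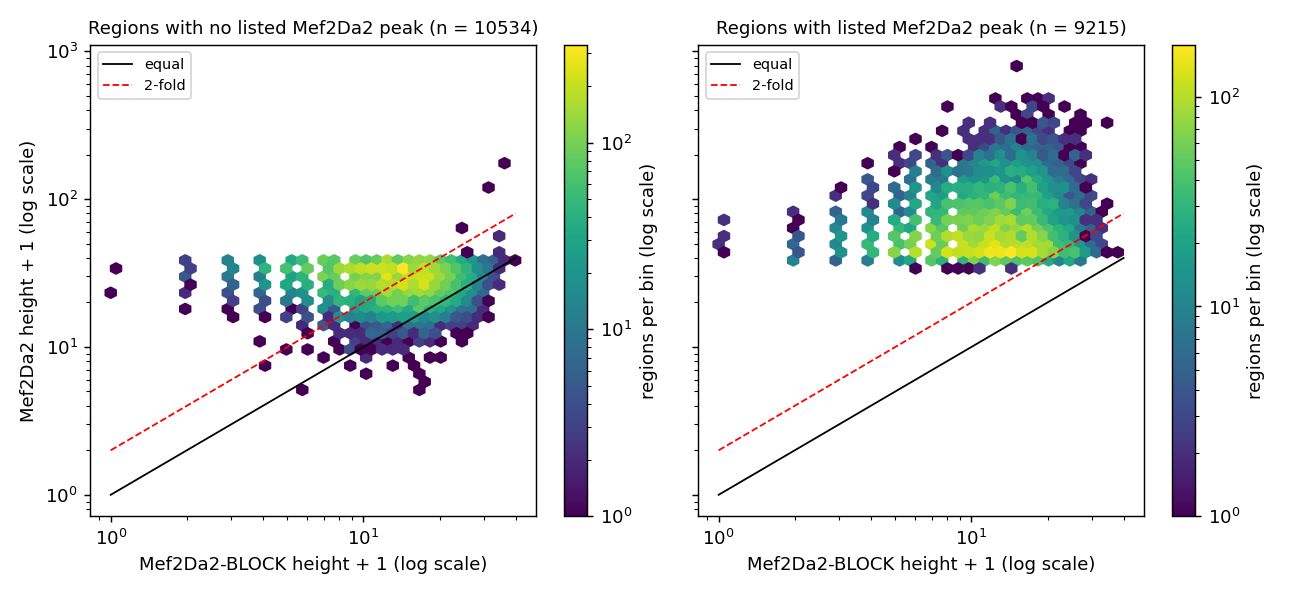
Mef2Da2 height (vertical axis) against Mef2Da2-BLOCK height (horizontal axis) with 1 added to each, both on log scales, for the 10534 regions without (left) and the 9215 regions with (right) a listed Mef2Da2 peak. Colour gives the number of regions per bin, and the lines mark equal and 2-fold higher height. All regions with a listed peak lie above the line of equality, and the blocked heights of both classes run from 0 to 37.

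The blocked signal hardly followed the Mef2Da2 signal. When regions were ordered by Mef2Da2 height and divided into 10 classes of 1974 or 1975 regions, the median Mef2Da2 height ran from 19 in the lowest class to 118 in the highest. The median blocked height stayed between 11 and 13 in all 10 classes, with quartiles of 10 and 17 in the lowest class and 9 and 16 in the highest. The median log2 ratio accordingly ran from 0.44 to 3.28 unscaled and from −1.51 to 1.33 scaled, which the ordering by the numerator brings about in part. The share at least 2-fold above the control was 18.7% in the lowest class, 81.0% in the fifth, 99.4% in the eighth and 100% in the highest. Scaled to the total, the same share was 0.15%, 2.63%, 15.5% and 70.0%. Across regions, the heights of both libraries had a Spearman correlation of −0.10 over all regions, 0.08 in regions with a listed peak and −0.08 in the others. These are descriptions across regions of the same libraries, in a table whose choice of regions is not given.

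**Figure D2:**
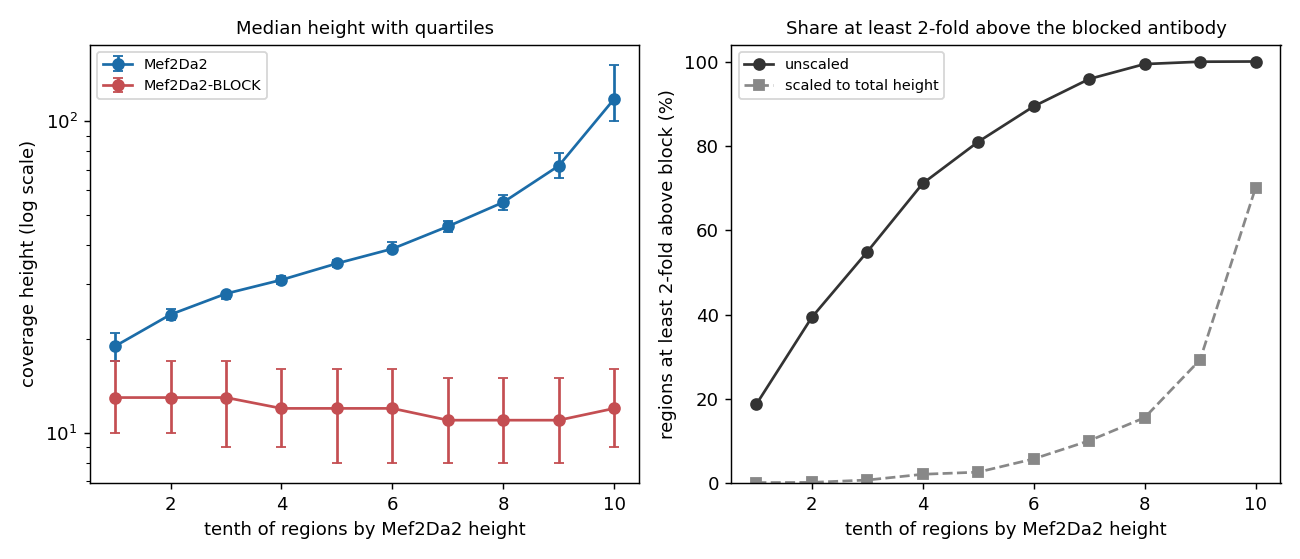
Left, median coverage height with quartiles (log scale) of Mef2Da2 and Mef2Da2-BLOCK in 10 classes of regions ordered by Mef2Da2 height. Right, the percentage of regions in the same classes whose height was 2-fold or more that of the blocked antibody, unscaled and scaled to total height. The Mef2Da2 median runs from 19 to 118 while the blocked median stays between 11 and 13.

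The 10 listed peaks with the highest −log10 p had heights of 413 to 753, and their regions had blocked heights of 12 to 22. These blocked heights were at or above the overall median of 12, and 5 of the 10 were above the upper quartile of 16. The peak at chr19:4992466-4993333 was the highest, with 753 for Mef2Da2 and 14 for the blocked control, a log2 ratio of 5.65 unscaled and 3.70 scaled. The peak at chr4:47616299-47617315 had 501 against 15, and that at chr2:125429461-125430225 had 474 against 12.

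On chromosome 10, the peak at chr10:80213955-80214629 reached 469 against 20, and the one at chr10:85775958-85776701 reached 446 against 22. The latter had the highest blocked value among the 10. Chromosome 12 held 3 of the 10, at chr12:73775278-73776275 (413 against 12), chr12:87432393-87432784 (460 against 17) and chr12:35213639-35214418 (438 against 13). The remaining peaks were at chr17:15598911-15599551, with 441 against 17, and at chr6:24547402-24547922, with 461 against 20. Over the 10 regions the unscaled log2 ratio lay between 4.28 and 5.65, and the scaled one between 2.33 and 3.70. All 10 therefore stood more than 4-fold above the control under both forms.

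Peaks of similar height could differ in width in this set. The peak at chr12:87432393-87432784 was 392 bp wide at a height of 460, whereas the peak at chr4:47616299-47617315 was 1017 bp wide at 501. The other 8 were 521 to 998 bp wide.

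Regions with the largest ratio were of a different kind. The 5 highest had Mef2Da2 heights of only 52 to 74, and the blocked library was listed at 0 in each, so no fold is given for them. The tallest was chr10:27167671-27167998 with a Mef2Da2 height of 74. It was followed by chr10:23339974-23340350 with 71, chr6:4464251-4464571 with 56, chr12:66169240-66169977 with 53 and chr16:14083061-14083411 with 52. A blocked height of 0 occurred in 9 of the 19749 regions, and 7 of these held a listed peak. Among regions with blocked height above 0, a set chosen after the values were seen, Mef2Da2 heights ran from 84 to 753 and blocked heights from 1 to 14 in the 5 largest ratios. After the region on chromosome 19 already described came chr12:53955167-53955911, with 399 against 7. Next were chr8:42083894-42084420 with 223 against 4, chr1:7253898-7254372 with 177 against 3 and chr2:90916061-90916420 with 84 against 1. Their log2 ratios were 5.41 to 5.64 unscaled.

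At the other end, Mef2Da2 lay below its blocked control even without scaling. The 5 smallest ratios belonged to chr3:58218559-58219100 (4 against 15), chr4:98872544-98872910 (5 against 16), chr10:79223413-79223701 (6 against 16), chr8:60130603-60130908 (7 against 17) and chr1:84835860-84836260 (8 against 19). None of the 5 held a listed Mef2Da2 peak. Their blocked heights of 15 to 19 were within 7 units of the overall median of 12, while their Mef2Da2 heights of 4 to 8 were far below the lower quartile of 28. Of the 501 regions at or below the control without scaling, 417 were in the lowest of the 10 height classes and 0 in the upper 6.

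The blocked antibody reached a height of 30 or more in 63 regions. Mef2Da2 had a median height of 38 there, and 9 of the 63 (14.3%) were at least 2-fold above the control unscaled and 1 (1.59%) scaled. A listed peak was held by 22 (34.9%), against 46.7% of all regions. The highest blocked height was 37, at chr11:58751729-58752772, where Mef2Da2 had 38 and no listed peak, and at chr8:87595406-87596541, where it had 42 and a listed peak. A height of 35 was found at chr10:77875436-77876012 and chr11:75546103-75546873, with Mef2Da2 at 37 and 41 and no listed peak in either. In these 4 regions both libraries were nearly level without scaling. The score of the blocked library reached 3 in 727 regions, 4 in 85, 5 in 4 and 6 in 0, while the −log10 p of Mef2Da2 reached 6 in 9109 regions, 20 in 1090 and 50 in 65.

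Regions were also divided by blocked height, the denominator of the ratio, so that an order of the ratio and of the 2-fold share follows from the classes themselves. In the 866 regions with a blocked height of 0 to 4, the median Mef2Da2 height was 42, 99.9% were at least 2-fold above the control and 58.3% held a listed peak. In the 7166 regions at 10 to 14 the median was 36, with 82.1% at least 2-fold above and 45.7% with a listed peak. In the 1634 regions at 20 to 24 it was 34, with 32.6% and 39.5%. Scaled to the total, the 2-fold shares of these 3 classes were 74.8%, 8.40% and 2.33%. Region width went along with blocked height, with medians of 384, 568 and 731.5 bp in the same 3 classes, and a Spearman correlation of 0.42 over all regions. Mef2Da2 height did not fall further in the highest classes. Its median was 36 in the 355 regions with a blocked height of 25 to 29 and 38 in the 63 regions at 30 or more. Listed peaks were held by 42.3% and 34.9% of them. In regions with a listed peak, the median blocked height was 8 at widths up to 400 bp and 16 above 1000 bp, and the median log2 ratio was 2.61 and 2.22. The part of width in the ratio was not tested.

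Listed Mef2Da2 peaks were narrow. The median width was 346 bp (quartiles 291 and 423, range 187 to 1341), and 90% were no wider than 536.6 bp. The median height was 56 (quartiles 45 and 80, range 34 to 753), so most peaks lay close to the lowest listed height and a small upper tail reached far above it. Heights of 34 to 44 were held by 2384 peaks (23.6%), 45 to 59 by 3239 (32.1%), and 200 or more by 214 (2.12%).

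Taller peaks were wider. The median width was 273 bp (quartiles 242 and 320) at heights of 34 to 44. It was 366 bp (quartiles 324 and 431) at 60 to 79, 453 bp (quartiles 400 and 539) at 120 to 199 and 548 bp (quartiles 473.25 and 708.25) at 200 or more. Across the 10105 peaks, width and height had a Spearman correlation of 0.64. How the edges of a peak were set is not given in the sources used here. Width did not fix height. Peaks of 500 to 699 bp had heights from 37 to 469, and those of 700 bp or more from 40 to 753.

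Only 32 peaks were wider than 1000 bp, with a median height of 100. The widest, at chr6:120937431-120938771, was 1341 bp wide and 97 high, against 13 in the blocked control. The next were chr6:91569480-91570764 (1285 bp, height 141), chr12:74504226-74505464 (1239 bp, height 124), chr15:76037164-76038363 (1200 bp, height 97) and chr13:28509450-28510647 (1198 bp, height 44). On chromosome 12 the blocked height was 9, and on chromosome 13 it was 20. The peaks at chr6:91569480-91570764 and chr15:76037164-76038363 were in no region of the table, so their control was not read. The broad peak on chromosome 13 was thus a low one, at a log2 ratio of 1.10 unscaled and −0.85 scaled, unlike the broad peak on chromosome 12 at 3.64 and 1.69.

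**Figure D3:**
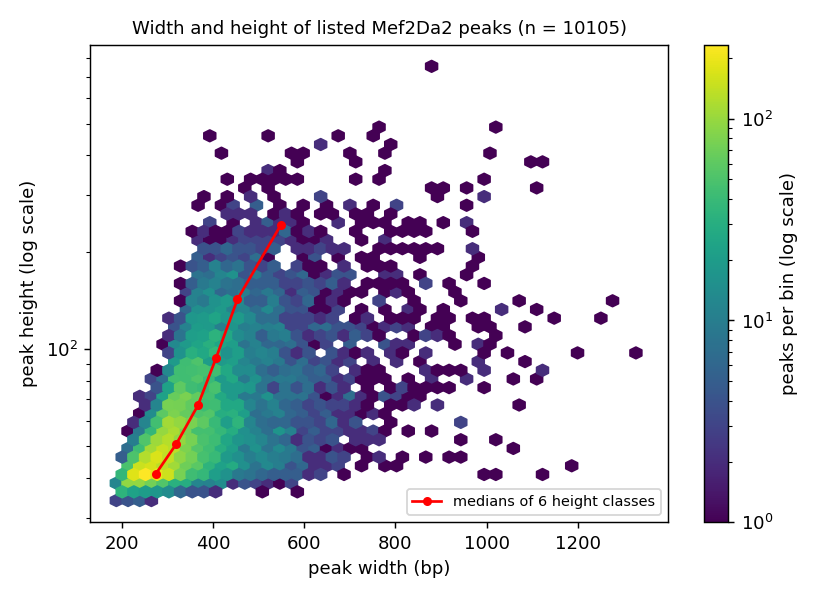
Height (vertical axis, log scale) against width in bp (horizontal axis) of the 10105 listed Mef2Da2 peaks, with colour for the number of peaks per bin. Red points join the medians of 6 height classes, which run from 273 bp at heights of 34 to 44 to 548 bp at 200 or more.

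The authors' −log10 p followed height closely, with a Spearman correlation of 0.99 across listed peaks. At a given height it took a small number of distinct values. The 420 listed peaks with a height of 40 had 8 different values between 6.01 and 7.29, and the 157 with a height of 60 had 9 between 9.51 and 11.4. The lowest value in the list, 6.01, was shared by 52 peaks, all of height 40, so that the 5 weakest peaks could not be told apart by −log10 p. In the combined table, a height of 40 likewise had 9 values. The commonest, 6.12, covered 134 regions with blocked heights from 4 to 30. One value of −log10 p was therefore given to regions with widely different blocked heights.

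Mef2Da2 peaks often lay near each other. The median gap between neighbouring peaks on a chromosome was 57940.5 bp, and 3590 peaks (35.5%, exact 95% interval 34.6 to 36.5) had another listed peak within 10 kb. For 989 peaks (9.79%) the neighbour lay within 1000 bp, and the smallest gap was 2 bp. Whether such close peaks are separate sites was not tested. Joining peaks at 10 kb gave 422 groups of 3 or more, with 1474 peaks in all. Peaks in such groups had a median height of 60 and a median width of 380 bp, against 54 and 335 bp for the 6515 peaks with no neighbour within 10 kb. The quartiles of height, 47 and 89 in groups against 44 and 77 for single peaks, overlapped widely.

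Within groups, heights were unequal. Neighbours within 10 kb had a Spearman correlation of height of 0.02 over 2110 pairs, and neighbours over 100 kb apart one of −0.01 over 3855 pairs. The 3 largest groups had 8 peaks each. At chr15:76028538-76044415 the heights in order of position were 53, 43, 40, 197, 52, 57, 97 and 200. At chr15:76839183-76867474 they were 46, 155, 79, 44, 43, 51, 52 and 75, and at chr11:80299173-80326220 they were 77, 58, 60, 58, 52, 99, 132 and 42. Each of these groups had 1 or 2 peaks higher than 120 and at least 1 within 10 units of the lowest listed height of 34. A group of 7 at chr3:122840851-122861781 had heights of 152, 40, 176, 113, 103, 78 and 42. Controls were read over all combined regions in the stretch of a group, with or without a listed peak. They cover the peaks only in part. Of the 278 peaks in groups of 5 or more, 39 lay in no region, among them chr15:76037164-76038363 in the first group of 8. The stretch on chromosome 3 held 7 regions with blocked heights of 4 to 18. For the 3 groups of 8, in the order above, blocked heights were 16 to 27 (2 regions), 10 to 25 (6 regions) and 11 to 20 (7 regions). Unscaled log2 ratios of these regions ran from 1.20 to 2.84, −0.18 to 2.25 and 1.22 to 2.73. The −0.18 belongs to a region without a listed peak. In the stretch on chromosome 3 the ratios ran from 1.97 to 4.38.

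The median height of listed peaks lay between 54 and 59 on each of the 19 autosomes. Neither the regions nor the listed peaks included chromosome X or Y. The median blocked height over all regions was 10 on chromosome 7, the lowest, and 14 on chromosome 15, the highest, and 11 to 13 on the others. The median Mef2Da2 height over all regions ran from 34.5 on chromosome 11 to 40 on chromosome 18. Across the 19 chromosomes, the median ratio had a Spearman correlation of −0.89 with the median blocked height and of 0.90 with the median Mef2Da2 height, both of which enter the ratio. The median log2 ratio was largest on chromosome 7, at 2.00, and smallest on chromosome 15, at 1.33, followed by chromosome 11 at 1.41 and chromosome 17 at 1.47. In regions with a listed peak it was 2.61 on chromosome 7 and 2.14 on chromosome 15. At least 2-fold more height than the control was found in 82.5% of regions on chromosome 7 and 66.5% on chromosome 15. Scaled to the total, these shares were 19.7% and 7.92%. Chromosomes 7 and 15 were picked here as the ends of this order after the values were seen.

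Chromosome 15 stood at the end of other orders too. Its regions had a median width of 625 bp, against 502 bp on chromosome 7 and 525 to 583 bp on the others. Its listed peaks had a median width of 367 bp, against 334 to 354 bp on the other chromosomes, at a median height of 57. Groups of 3 or more peaks held 24.5% of its 774 listed peaks, 4.88% of the 451 on chromosome 7 and 9.85% to 19.8% on the others. Grouping at a fixed distance depends on how densely peaks lie, and chromosome lengths were not used. Blocked height, region width and grouping of peaks were thus all largest on this chromosome. They did not go together everywhere. Chromosome 12 had 19.8% of its peaks in such groups at a median blocked height of 11, and chromosome 11 had 10.1% at 13. The part of each in the lower ratio of chromosome 15 was not tested, and no estimate of chromosome copy number in these cells was used.

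**Figure D4:**
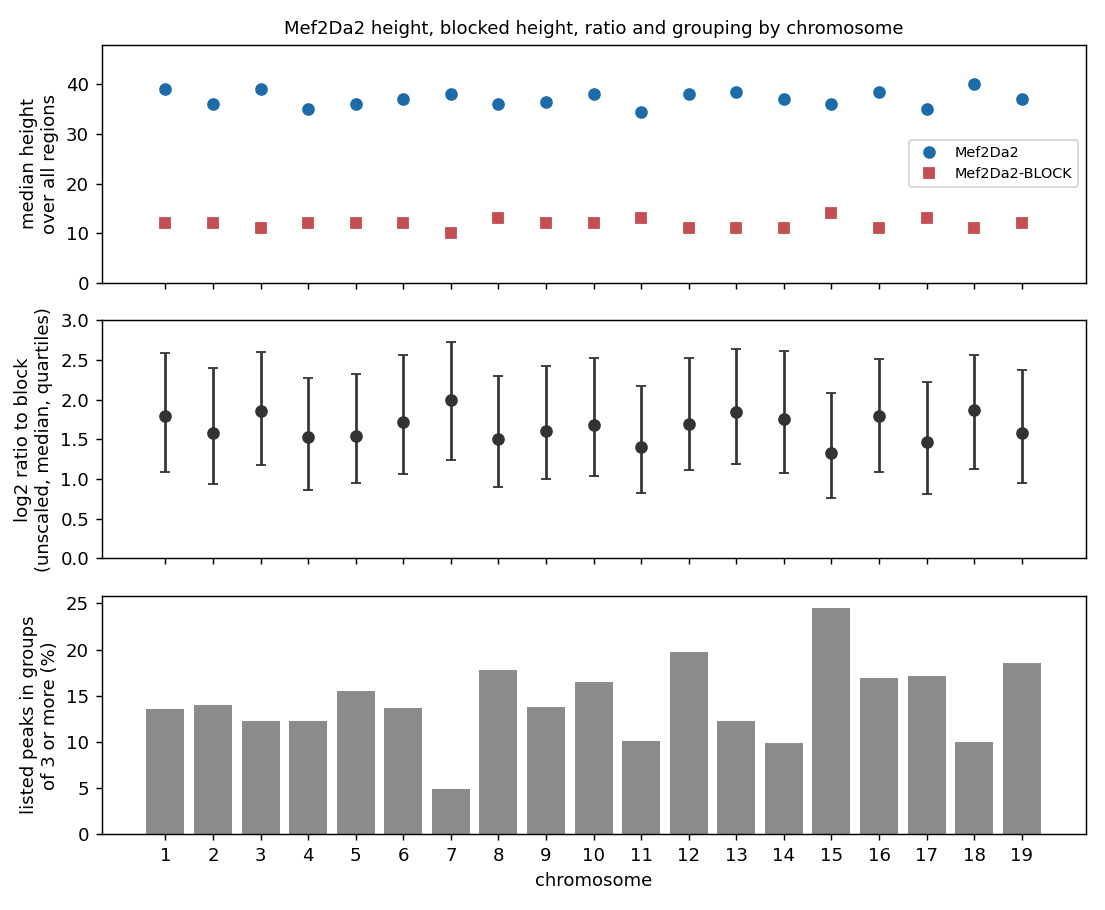
For each autosome (horizontal axis), the median height over all regions of Mef2Da2 and Mef2Da2-BLOCK (top), the median unscaled log2 ratio with quartiles (middle) and the share of listed Mef2Da2 peaks in groups of 3 or more joined at 10 kb (bottom). Chromosome 15 has the highest blocked median (14), the lowest median ratio (1.33) and the largest share of grouped peaks (24.5%), and chromosome 7 is at the other end of all 3.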

How the data were processed

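ChIP-seq libraries of Mef2Da2 and Mef2Da2-BLOCK (1 each) were compared. Per the submitters' processing notes, BWA 0.5.9 and the build mm9 were used. Not given in the sources used here are the peak caller, its filters and the choice of combined regions. The signal deposited by the authors is a coverage height in whole numbers, not scaled to depth. The authors' deposited −log10 p was used as given, and for the blocked library, where it falls below 0, it was treated as a score. The table's columns carry no sample titles and were assigned by the name of each sample's peak list. In all 9215 regions with a listed peak, the table's Mef2Da2 height equalled that of the highest peak.

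The log2 ratio was log2 of (Mef2Da2 height + 1) over (Mef2Da2-BLOCK height + 1), unscaled or less the log2 ratio of the libraries' total heights. A region held a peak when they shared 1 bp. Shares carry exact (Clopper-Pearson) 95% intervals and medians intervals from binomial order statistics, both for counting error only. Depth was unknown, so heights carry no interval. Peak coordinates are 1-based, and region coordinates are as in the table.

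The peaks named are the 10 with the highest −log10 p and the 5 widest. The 5 lowest by −log10 p were planned too, but 52 peaks shared the lowest value and none is named. The regions named are the 5 with the largest and the 5 with the smallest ratio, and those with the highest blocked height. Of the last 5 planned, 4 are named because the 5th place was tied. Also named are the largest groups of peaks and a group on chromosome 3. The largest ratios with a blocked height above 0 and the tallest regions without a listed peak were added. Regions, comparisons and settings were chosen with earlier results of these data known. Gene lists were not used, for want of gene names in the files. Alternatives were scaling, the pseudocount, a height filter, the overlap rule, stricter peaks, neighbour distance and leaving out chromosome 15. Code was tested on simulated data. Scripts ran under Python 3.11.15 with Matplotlib 3.10.9, SciPy 1.17.1, pandas 2.3.3 and NumPy 2.4.6.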

Additional observations from a re-analysis of the deposited data

How the results depend on the processing

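Of 33 alternative values, 10 stayed within the 95% interval of the value reported, 22 moved beyond it and 1 changed sign. With the libraries scaled to total height, the median log2 ratio was −0.32, and the shares with 2-fold or more of the blocked height were 13.7% over all regions, 27.7% with and 1.39% without a listed peak. Scaled to the median ratio, the median was 0 by construction and the shares were 20.1%, 39.99% and 2.72%. With a pseudocount of 5 the median was 1.37 and the shares 67.6%, 96.2% and 42.7%. Keeping regions with a summed height of at least 40 gave a median of 1.84 and a share of 80.6% over all regions. Without chromosome 15 the median was 1.66, and the shares were 75.6% over all regions and 55.96% without a listed peak. Keeping peaks with a −log10 p of at least 10 gave a median width of 403 bp, a median height of 85, a correlation of width and height of 0.44 and 22.9% of peaks with a neighbour within 10 kb. Within 5 kb this share was 25.2%, and within 50 kb 67.4%. No paired analysis was possible because each side had 1 library. Unknown depth limits every comparison of heights between the libraries.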

Other observations

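The list of Mef2Da2 peaks and the combined table did not fully match. Of the 10105 listed peaks, 687 (6.80%) lay in no region of the table, so their blocked height could not be read. Their median height was 46, against 57 for the 9418 peaks in a region, and they reached up to 402. Conversely, 177 regions had a −log10 p of 6 or more without a listed peak, with a median Mef2Da2 height of 38 and a median blocked height of 9. A listed peak with a table −log10 p under 6 (5.10 to 5.99) was found in 283 regions, although the lowest value in the list was 6.01, so the −log10 p of the list and of the table are not the same. All listed peaks that touched a region lay wholly inside it.

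Tall Mef2Da2 regions without a listed peak were few. Of the 5958 regions with a height of 50 or more, 5953 held a listed peak and 5 did not. The 5 had blocked heights of 24 to 34, whereas the 5953 had a median of 11 (range 0 to 33). The tallest 3, chosen after their values were seen, were chr9:63550059-63551635 (172 against 34), chr6:148719738-148720458 (110 against 30) and chr12:74311449-74311906 (60 against 24). A high blocked height did not go with a missing peak everywhere: 22 regions with a blocked height of 30 or more held one.

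In 193 regions the table joined 2 to 4 listed peaks. The highest of them had a median height of 83 and the second a median of 49.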
